A study of Homo sapiens with 4 samples.

Results

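The aryl hydrocarbon receptor pathway was examined in Caco-2 cells. This established line comes from a human colorectal adenocarcinoma and becomes enterocyte-like once confluent. It was represented by 8 genes chosen by name: the receptor AHR, its repressor AHRR, its dimer partner ARNT, the cytochrome P450 genes CYP1A1, CYP1A2 and CYP1B1, and the target genes TIPARP and ALDH3A1. Of these 8, 7 had a probe set annotated with that gene alone, out of 18417 genes so annotated in the whole array table. The only probe set that lists AHRR also lists PDCD6, so AHRR has no value here. There were 4 conditions with 1 array each. On collagen-coated Transwell inserts, which are porous membranes with separate apical and basolateral sides, cells received 2 mM cholate on the apical side or vehicle. On regular 6-well plates they likewise received 2 mM cholate or vehicle. All incubations lasted 3 h, and every array held RNA pooled from 3 samples. The labels give 21 days of differentiation for all 4 conditions, while the protocol text has plates used at 14 days and inserts at 14 to 21 days after seeding. Membrane, collagen coating and any difference in culture age therefore cannot be told apart in the contrast of supports.

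AHR is a transcription factor of the bHLH-PAS family that waits in the cytosol with HSP90 and other chaperones. When it binds a ligand, such as a planar aromatic pollutant, a dietary indole or a microbial tryptophan product, it enters the nucleus, pairs with ARNT and binds DNA elements with the core letters GCGTG. CYP1A1 is its classical target and in turn oxidises many of the ligands, while AHRR and TIPARP act as feedback brakes. In the intestinal epithelium this pathway is known for linking diet and microbial products to drug metabolism and barrier function.

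Promoter sequences from RefSeq (GRCh38.p14) are shown for 3 members, because CYP1A1 and CYP1A2 lie on one chromosome and gave very different values between supports, and because TIPARP gave the highest mean cholate response of the members. Each is the 250 bases before the gene start, 5′ to 3′ on the gene's strand, with GCGTG or its reverse complement CACGC in capitals. TIPARP has several listed starts, and the one upstream of the others was taken.
CYP1A1 (chr15:74725529-74725778, minus strand): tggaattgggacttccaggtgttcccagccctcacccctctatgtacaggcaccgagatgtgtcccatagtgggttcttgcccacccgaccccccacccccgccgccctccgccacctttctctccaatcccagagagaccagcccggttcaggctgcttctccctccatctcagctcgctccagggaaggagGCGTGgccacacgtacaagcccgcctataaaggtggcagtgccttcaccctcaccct
CYP1A2 (chr15:74748595-74748844, plus strand): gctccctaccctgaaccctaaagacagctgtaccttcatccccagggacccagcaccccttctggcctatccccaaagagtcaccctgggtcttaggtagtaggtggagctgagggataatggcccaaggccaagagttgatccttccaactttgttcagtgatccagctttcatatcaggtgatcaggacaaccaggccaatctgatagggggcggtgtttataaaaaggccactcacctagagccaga
TIPARP (chr3:156674340-156674589, plus strand): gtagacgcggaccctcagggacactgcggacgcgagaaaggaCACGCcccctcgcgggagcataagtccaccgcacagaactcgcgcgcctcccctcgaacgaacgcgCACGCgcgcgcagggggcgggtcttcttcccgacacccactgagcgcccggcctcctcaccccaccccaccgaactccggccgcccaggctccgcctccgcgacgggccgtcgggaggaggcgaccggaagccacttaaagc
CYP1A1 held 1 match, beginning 57 bases before the start, TIPARP held 2, beginning 208 and 142 bases before it, and CYP1A2 held 0. The 2 other TIPARP windows and the windows of AHR and ARNT held 0, and the 2 windows of AHRR held 1 and 2. In all, 4 of 9 windows, from 3 of the 6 members in the table, held a match. Counting both strands, 32.2% of all 35116 RefSeq windows of this length held GCGTG or CACGC. The longer form TNGCGTG, searched on both strands and containing the core by construction, was in 4.52% of them, in none of the 3 shown and in 1 AHRR window. The letters TATAAA, on the gene's strand, were in the windows of CYP1A1 and CYP1A2 and in 6.80% of all windows. These matches describe letters in a window and say nothing of binding.

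The values are log2 intensities after RMA, and an expression floor was set at 4.84, the 40th percentile of probe set means over the 4 arrays. AHR, ARNT, CYP1A1, CYP1A2, TIPARP and ALDH3A1 lay above it on all 4 arrays, and CYP1B1 lay under it on all 4. All 11 enterocyte markers had means above the floor, among them VIL1, CDX2, EPCAM and CDH17. Above the floor were also 5 of 7 fibroblast, 2 of 5 measured leukocyte and 1 of 5 endothelial markers. Most genes passed this floor, 12900 of 18417, so these counts do not identify a cell type. The fibroblast marker COL1A1 read 7.57 to 8.15, while the enterocyte markers VIL1 and KRT20 read 11.39 to 11.54 and 5.59 to 6.42. These 3 were picked after their values were seen. The pan-leukocyte marker PTPRC read 2.87 to 3.05, while CD14 read 8.39 to 8.79 and the lysosomal protein gene CD68 8.71 to 9.45. No condition was measured again, so the spread between cultures is unknown and a difference of 2 arrays has no test. A limma fit of support and treatment over all 4 arrays gave standard errors and p-values, with its 1 residual degree of freedom being the disagreement between the 2 cholate responses. In bulk RNA, fewer cells of a kind and less RNA per cell cannot be told apart.

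**Figure D1:**
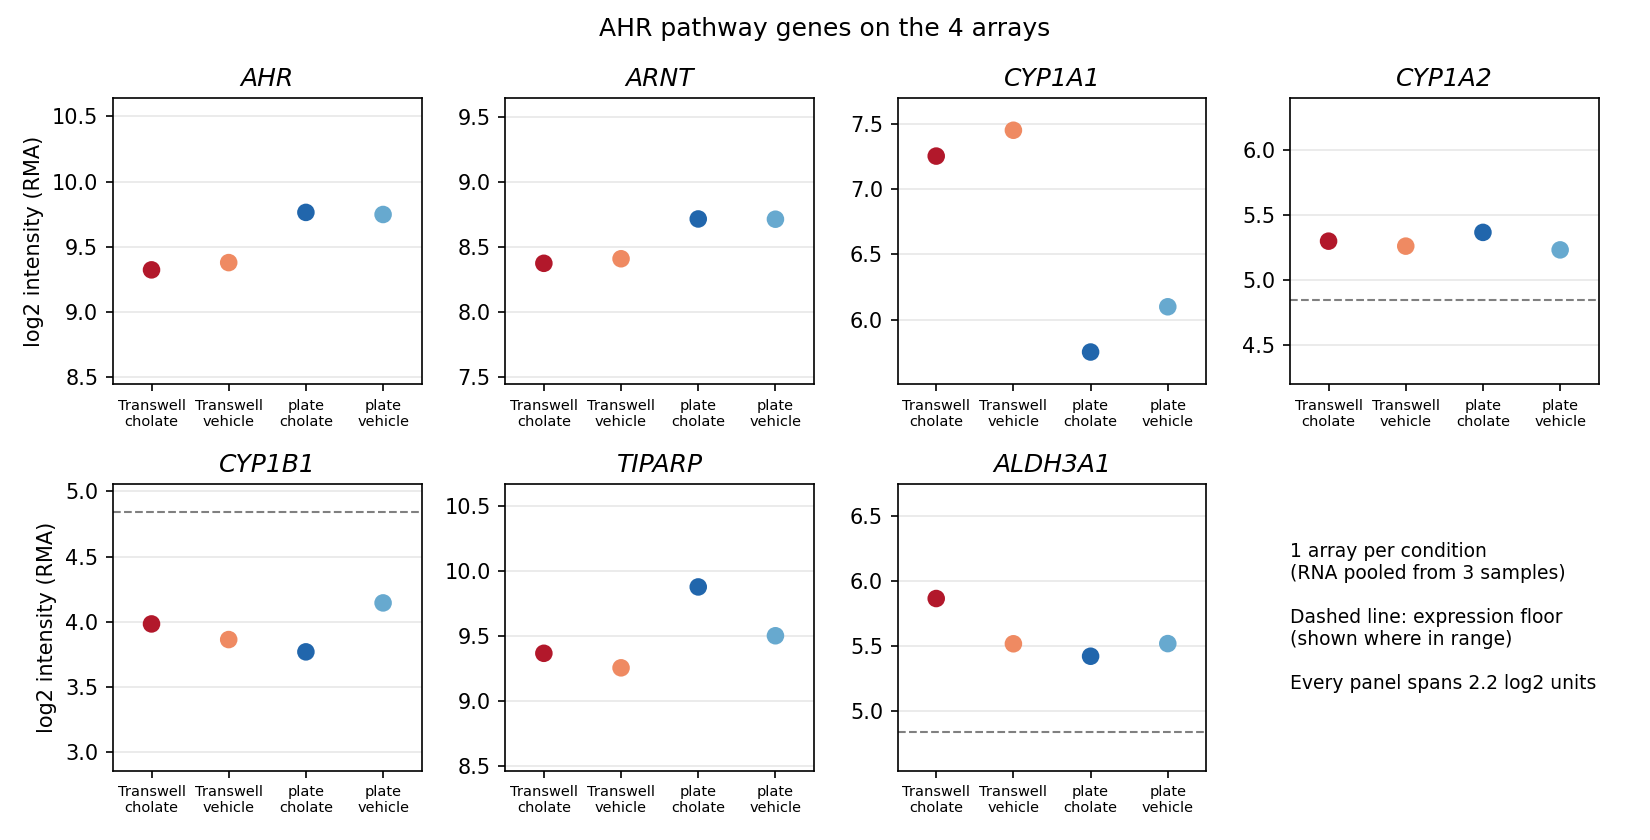
Log2 intensity of 7 AHR pathway genes on the Transwell cholate, Transwell vehicle, plate cholate and plate vehicle arrays, 1 point per array, with the floor of 4.84 dashed where it falls in range. CYP1A1 is high on both Transwell arrays and low on both plate arrays, AHR and ARNT are lower on both Transwell arrays, and all CYP1B1 points lie under the floor.

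The widest contrast among the members was between supports and lay in CYP1A1, which encodes the monooxygenase most used as a readout of AHR activity. CYP1A1 read 7.26 in cholate and 7.45 in vehicle on Transwell, against 5.75 in cholate and 6.10 in vehicle on the plate. It was thus higher on Transwell in both treatments, as were 39.5% of genes above the floor. The Transwell minus plate difference was 1.51 log2 in cholate (2.84-fold) and 1.36 log2 in vehicle (2.56-fold). The mean of 1.43 had a limma SE of 0.09 and a 95% interval of 1.17 to 1.70. Ranked by the smaller of the 2 differences among genes with the same direction in both treatments, CYP1A1 was number 16 from the top of 12900 genes above the floor. CYP1A1 was the only measured member at least 1.5-fold apart between supports, in either treatment. As background, 1.19% of genes above the floor were higher on Transwell by at least 1.5-fold in both treatments and 1.84% lower. By single treatment, 4.02% were higher and 3.75% lower in cholate, and 1.93% higher and 3.16% lower in vehicle. With array medians set equal, the counts in cholate were 654 higher and 405 lower, beside 518 and 484 as deposited.

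The CYP1A1 difference did not pass limma after adjustment over 19978 probe sets (unadjusted p = 0.000144, Benjamini-Hochberg adjusted p = 0.0858). The same adjusted p was the smallest of all and was shared by 126 probe sets, and 0 probe sets passed at 0.05. Unadjusted p was under 0.05 for 22.6% of all probe sets, and for 4 of the 6 members tested, which were chosen with earlier results known. Testing only probe sets above the 60th percentile gave CYP1A1 an adjusted p of 0.0135, and a prior that follows mean intensity gave 0.0308. CYP1A1 passed that stricter floor by its mean of 6.64, through its Transwell values, while both plate values lay below the floor. The 0.0135 is therefore no added support for the contrast of supports. Over all alternatives its adjusted p ran between 0.0135 and 0.171.

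The receptor itself was lower on Transwell. AHR read 9.32 in cholate and 9.38 in vehicle on Transwell, against 9.76 in cholate and 9.75 in vehicle on the plate. AHR was thus lower on Transwell in both treatments, the reverse of CYP1A1. The differences were -0.44 log2 in cholate and -0.37 in vehicle, a mean of -0.41 (SE 0.09, limma adjusted p = 0.141). ARNT, the partner AHR needs to bind DNA, read 8.37 in cholate and 8.41 in vehicle on Transwell, against 8.71 in cholate and 8.71 in vehicle on the plate. ARNT was also lower on Transwell in both treatments, with differences of -0.34 and -0.30 and a mean of -0.32 (SE 0.09, limma adjusted p = 0.168). Of all genes above the floor, 6.42% had a lower mean support difference than AHR and 9.33% a lower one than ARNT. A gene lower on Transwell in both treatments was common, since 33.2% of genes above the floor were, and 39.5% were higher in both.

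TIPARP encodes a mono-ADP-ribosyltransferase, also called PARP7, that is induced by AHR and restrains it. It read 9.37 in cholate and 9.26 in vehicle on Transwell, against 9.88 in cholate and 9.50 in vehicle on the plate. The support difference was -0.51 log2 in cholate and -0.25 in vehicle, a mean of -0.38 (SE 0.11, limma adjusted p = 0.180). TIPARP was thus lower on Transwell in both treatments, while CYP1A1, also an AHR target, was higher. Among genes above the floor 33.2% were lower and 39.5% higher in both.

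The other drug-metabolism members showed little or gave low values. CYP1A2, whose product oxidises caffeine and is known mainly from liver, read 5.30 in cholate and 5.26 in vehicle on Transwell, against 5.36 in cholate and 5.23 in vehicle on the plate. These 4 values lay within 0.13 log2 of each other and not far above the floor, and the mean support difference was -0.02 with a 95% interval of -0.27 to 0.23. ALDH3A1, an aldehyde dehydrogenase that responds to AHR ligands in liver cells, read 5.87 in cholate and 5.52 in vehicle on Transwell, against 5.42 in cholate and 5.52 in vehicle on the plate. Transwell with cholate was the array that stood above the other 3. Its support difference was 0.44 in cholate and -0.00 in vehicle, a mean of 0.22 with an interval of -0.18 to 0.62 (limma adjusted p = 0.415). CYP1B1, a CYP1 enzyme known from tissues outside the liver, read 3.98 in cholate and 3.86 in vehicle on Transwell, against 3.77 in cholate and 4.14 in vehicle on the plate. All were under the floor, so no difference is read from them.

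**Figure D2:**
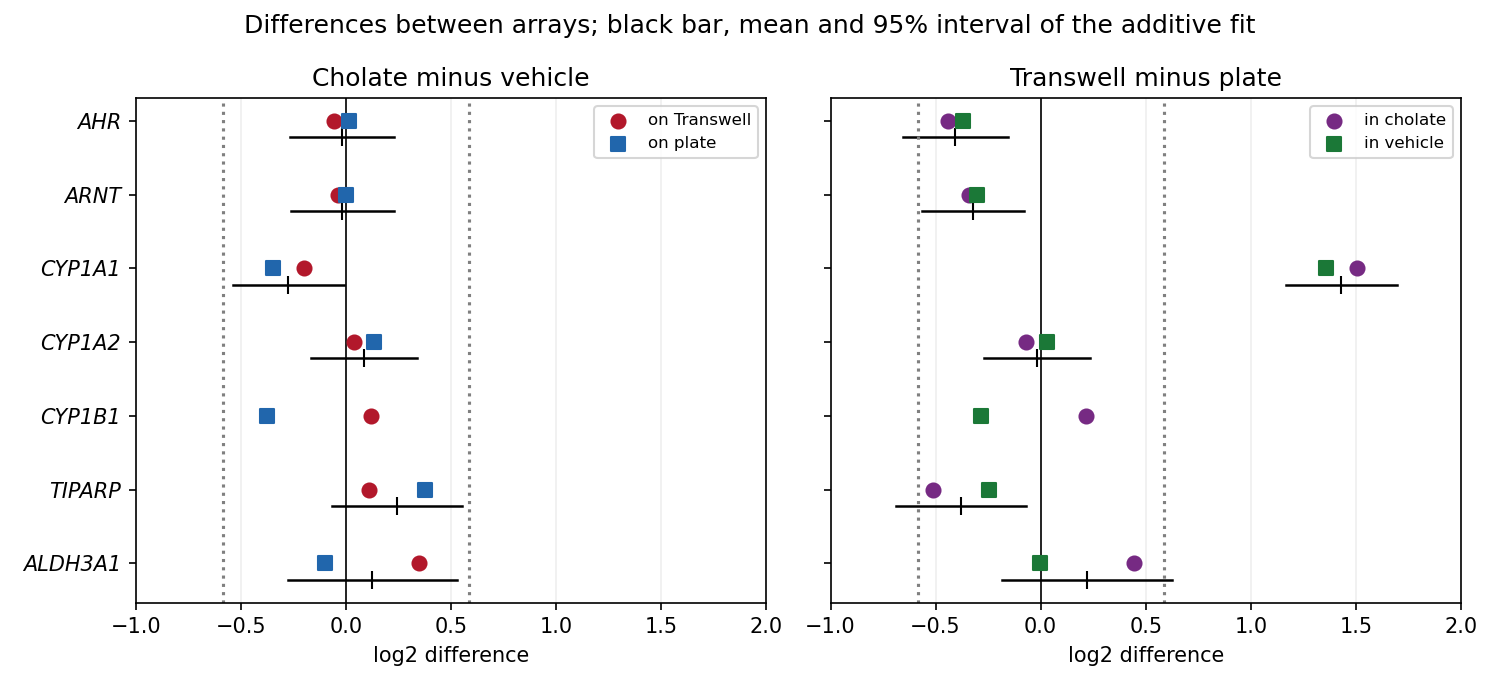
Log2 differences of 7 genes, cholate minus vehicle on each support (left) and Transwell minus plate in each treatment (right); black bars are the mean and 95% interval of the limma fit for the 6 genes above the floor, and dotted lines mark 1.5-fold. CYP1A1, at 1.51 and 1.36 for Transwell minus plate, is the gene beyond the dotted lines.

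For cholate, the question was whether 3 h of the bile acid went with a different level of the receptor pathway on either support. No measured member was 1.5-fold apart on either support. Of all 12900 genes above the floor, 0.357% were higher and 0.736% lower by that margin on Transwell, 1.49% higher and 2.35% lower on the plate, and 0.178% higher and 0.504% lower on both. Under median centring the higher and lower counts were 28 and 126 on Transwell, beside 46 and 95 as deposited, and 149 and 426 on the plate, beside 192 and 303. Limma called 0 of 6 members and 0 of all probe sets at adjusted p under 0.05, and unadjusted p was under 0.05 for 1 member, CYP1A1, and for 10.8% of all probe sets.

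CYP1A1 was lower in cholate on both supports, by the values given above, with a response of -0.20 log2 on Transwell and -0.35 on the plate. The mean was -0.27 (SE 0.09, 95% interval -0.54 to -0.01, limma unadjusted p = 0.0462, adjusted p = 0.456). Of all genes above the floor, 6.44% had a lower mean response. TIPARP stood on the other side, with 0.11 on Transwell and 0.38 on the plate and a mean of 0.24 (SE 0.11, 95% interval -0.07 to 0.55, limma adjusted p = 0.515). A lower mean response than that of TIPARP was seen in 95.1% of genes. Its higher value on the plate is that of the cholate array, 9.88, which stood above the other 3.

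AHR and ARNT showed near-zero responses. AHR had -0.06 on Transwell and 0.02 on the plate (95% interval of the mean -0.27 to 0.23), and ARNT -0.04 and 0.00 (-0.26 to 0.23). CYP1A2 had 0.04 and 0.13, with an interval of -0.17 to 0.34. ALDH3A1 had 0.35 on Transwell and -0.10 on the plate, with an interval of -0.28 to 0.53. CYP1B1 had 0.12 and -0.38, with all values under the floor. Of the 6 members above the floor, 2 were higher on both supports, 1 was lower on both and 3 were mixed, beside 26.1% higher and 34.7% lower on both among all genes above the floor. This tally depended on scaling. It was 1 higher, 3 lower and 2 mixed under median centring, where AHR (-0.10 on Transwell and -0.05 on the plate) and ARNT (-0.08 and -0.07) were lower on both. It was 1 higher, 1 lower and 4 mixed under quantile normalization and cyclic loess, and CYP1A2 on Transwell was just below 0 under all 3 scalings, at -0.013 to -0.004.

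The genes around the pathway were described from lists chosen with earlier results of these data known. A list share set beside its background is therefore no test. Values are log2 differences. For the tallies below, 26.1% of genes above the floor were higher and 34.7% lower in cholate on both supports. Between supports 39.5% were higher and 33.2% lower in both treatments. The tallies depended on scaling: over all genes, median centring gave 1970 higher and 6520 lower for cholate, beside 3361 and 4481. The first list held 23 further genes reported as AHR targets in various cells, of which 19 had a probe set and 17 lay above the floor. Between supports 7 were higher on Transwell in both treatments, 6 lower in both and 4 mixed. Their median was 0.02 (-0.001 under cyclic loess), and the median over all genes above the floor was also 0.02 (-0.01). Limma called 0 of the 17 after adjustment, as it did of all 19978 probe sets. This 0, and those of the lists below, are therefore not particular to them. Unadjusted p was under 0.05 for 9, beside 22.6% of all probe sets. At 1.5-fold in both treatments 3 were higher and 2 lower, beside 1.19% and 1.84% of genes above the floor. Chosen after their values were seen, these 5 were IL1B, ABCG2 and NEDD9, and GSTA1 and GSTA2.

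IL1B, an inflammatory cytokine, read 7.33 in cholate and 7.30 in vehicle on Transwell, against 5.57 in cholate and 5.16 in vehicle on the plate, differences of 1.76 and 2.15 (limma adjusted p = 0.0858). ABCG2, an apical efflux pump that AHR ligands are known to induce in Caco-2 cells, read 10.47 in cholate and 10.52 in vehicle on Transwell, against 8.74 in cholate and 8.94 in vehicle on the plate. ABCG2 thus differed by 1.73 and 1.58 (limma adjusted p = 0.0858), in the direction of CYP1A1. NEDD9, a scaffold protein of cell adhesion, differed by 0.61 in cholate and 0.79 in vehicle. NQO1, the quinone reductase shared by AHR and NRF2, differed by 0.33 and 0.41 and was named after its values were seen. The glutathione transferase GSTA1 stood at -0.84 in cholate and -0.73 in vehicle (limma adjusted p = 0.0964), with its close copy GSTA2 at -0.89 and -0.64. Probes may not separate these GSTA genes. The reported targets thus lay on both sides between supports.

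In cholate the same 17 targets had a median of 0.03 (all genes above the floor, -0.02), and -0.03 under median centring (all genes, -0.08). Over the 2 supports 5 were higher, 4 lower and 8 mixed, and under median centring 2 higher and 5 lower. Limma called 0 of them, as of all probe sets. SLC7A5, the transporter that brings tryptophan and kynurenine into cells, read 9.004 in cholate and 9.51 in vehicle on Transwell and 9.14 in cholate and 9.73 in vehicle on the plate. Its response was -0.51 on Transwell and -0.59 on the plate (limma unadjusted p = 0.00398, adjusted p = 0.325). STC2, a secreted glycoprotein, had 0.11 and 0.36. HES1, a Notch effector, had 0.01 and 0.44.

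Tryptophan metabolism supplies and removes AHR ligands such as kynurenine. Of 16 listed genes 15 had a probe set and 9 lay above the floor. SLC7A5 and IDO1 are also on the list of reported targets, and the SLC7A5 values given above count again here. The kynurenine-forming oxygenases IDO1, IDO2 and TDO2 were under the floor, as named after their values were seen. KYNU, the kynureninase that breaks kynurenine down, read 5.17 in cholate and 5.64 in vehicle on Transwell and 5.57 in cholate and 6.12 in vehicle on the plate. Its cholate response was -0.47 on Transwell and -0.55 on the plate (limma adjusted p = 0.331), and Transwell minus plate was -0.40 in cholate and -0.48 in vehicle (adjusted p = 0.134). The aminotransferase gene KYAT1 had cholate responses of -0.37 and -0.02 and support differences of -0.54 and -0.19. HAAO, further down the same route, had support differences of -0.45 and -0.18. For cholate 3 of the 9 were higher on both supports, 4 lower and 2 mixed (median 0.03, and -0.03 under median centring). Under median centring 0 were higher and 5 lower. Between supports 3 were higher, 5 lower and 1 mixed (median -0.18). Limma called 0 in either effect, as of all probe sets.

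Chaperones and coactivators of AHR held 14 measured genes of 17 listed, all above the floor. Their median was -0.04 for cholate, with 2 higher on both supports, 6 lower and 6 mixed (0 higher and 7 lower under median centring). It was -0.02 for support (0.01 under median centring), with 4 higher, 4 lower and 6 mixed (3 higher and 7 lower under cyclic loess). The largest mean cholate responses were those of RELB, an NF-kappaB subunit that can pair with AHR (0.01 on Transwell and -0.49 on the plate), DDB1 (-0.20 and -0.26) and CUL4B (-0.11 and -0.33), the last 2 being parts of a ubiquitin ligase in which AHR can take part. For support they were the coactivator NCOA1 (-0.49 in cholate and -0.28 in vehicle), SP1, a factor that binds GC-rich promoters (-0.32 and -0.20), and the coactivator NCOA2 (-0.21 and -0.27). Limma called 0 of the 14 in either effect, as of all probe sets.

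Other bHLH-PAS factors include competitors for ARNT. Of 16 measured, 11 lay above the floor. Their median was -0.02 for cholate (1 higher, 3 lower, 7 mixed) and -0.15 for support (2 higher, 7 lower, 2 mixed). Median centring gave 1 higher and 5 lower for cholate. EPAS1, the hypoxia factor HIF-2alpha, had cholate responses of -0.22 on Transwell and -0.29 on the plate. The clock activator BMAL1 had -0.06 and -0.27, and NPAS1 had 0.09 and 0.19. Between supports, CLOCK differed by 0.10 in cholate and 0.63 in vehicle. The clock repressors PER1 and PER2 differed by -0.62 and -0.06 and by -0.33 and -0.03. Limma called 0 in either effect, as of all probe sets.

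CYP1 enzymes need heme and electrons. Of 12 listed genes for redox partners and heme synthesis 11 were measured and above the floor. Their medians were -0.04 for cholate (2 higher, 5 lower, 4 mixed) and 0.05 for support (4 higher, 4 lower, 3 mixed). Median centring gave 1 higher and 8 lower for cholate and 6 higher and 4 lower for support. ALAS1, the first and rate-limiting enzyme of heme synthesis, had support differences of -0.43 in cholate and -0.23 in vehicle. ALAD, the next enzyme of that route, had -0.20 and -0.39, and CYB5B, an outer mitochondrial cytochrome b5, had 0.29 and 0.26. Cholate responses of FECH, which inserts the iron, were -0.08 on Transwell and -0.46 on the plate. Those of ALAD were -0.07 and -0.27, and those of UROS -0.19 and -0.10. Limma called 0 of these 11 in either effect, as of all probe sets.

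Aldehyde dehydrogenases outside ALDH3A1 had 9 of 10 measured genes above the floor. Their medians were -0.13 for cholate (0 higher on both supports, 5 lower, 4 mixed) and -0.05 for support (2 higher, 4 lower, 3 mixed). Median centring gave 0 higher and 6 lower for cholate and 3 higher and 3 lower for support. The mitochondrial ALDH1B1 had support differences of 0.78 in cholate and 0.43 in vehicle, while ALDH9A1 (-0.31 and -0.37) and the mitochondrial enzyme of ethanol breakdown ALDH2 (-0.31 and -0.33) lay on the other side. ALDH1B1 had cholate responses of -0.12 on Transwell and -0.47 on the plate, ALDH3A2 -0.08 and -0.29, and ALDH1A3 -0.02 and 0.34. ALDH1A3 is also on the list of reported targets. Limma called 0 in either effect, as of all probe sets.

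**Figure D3:**
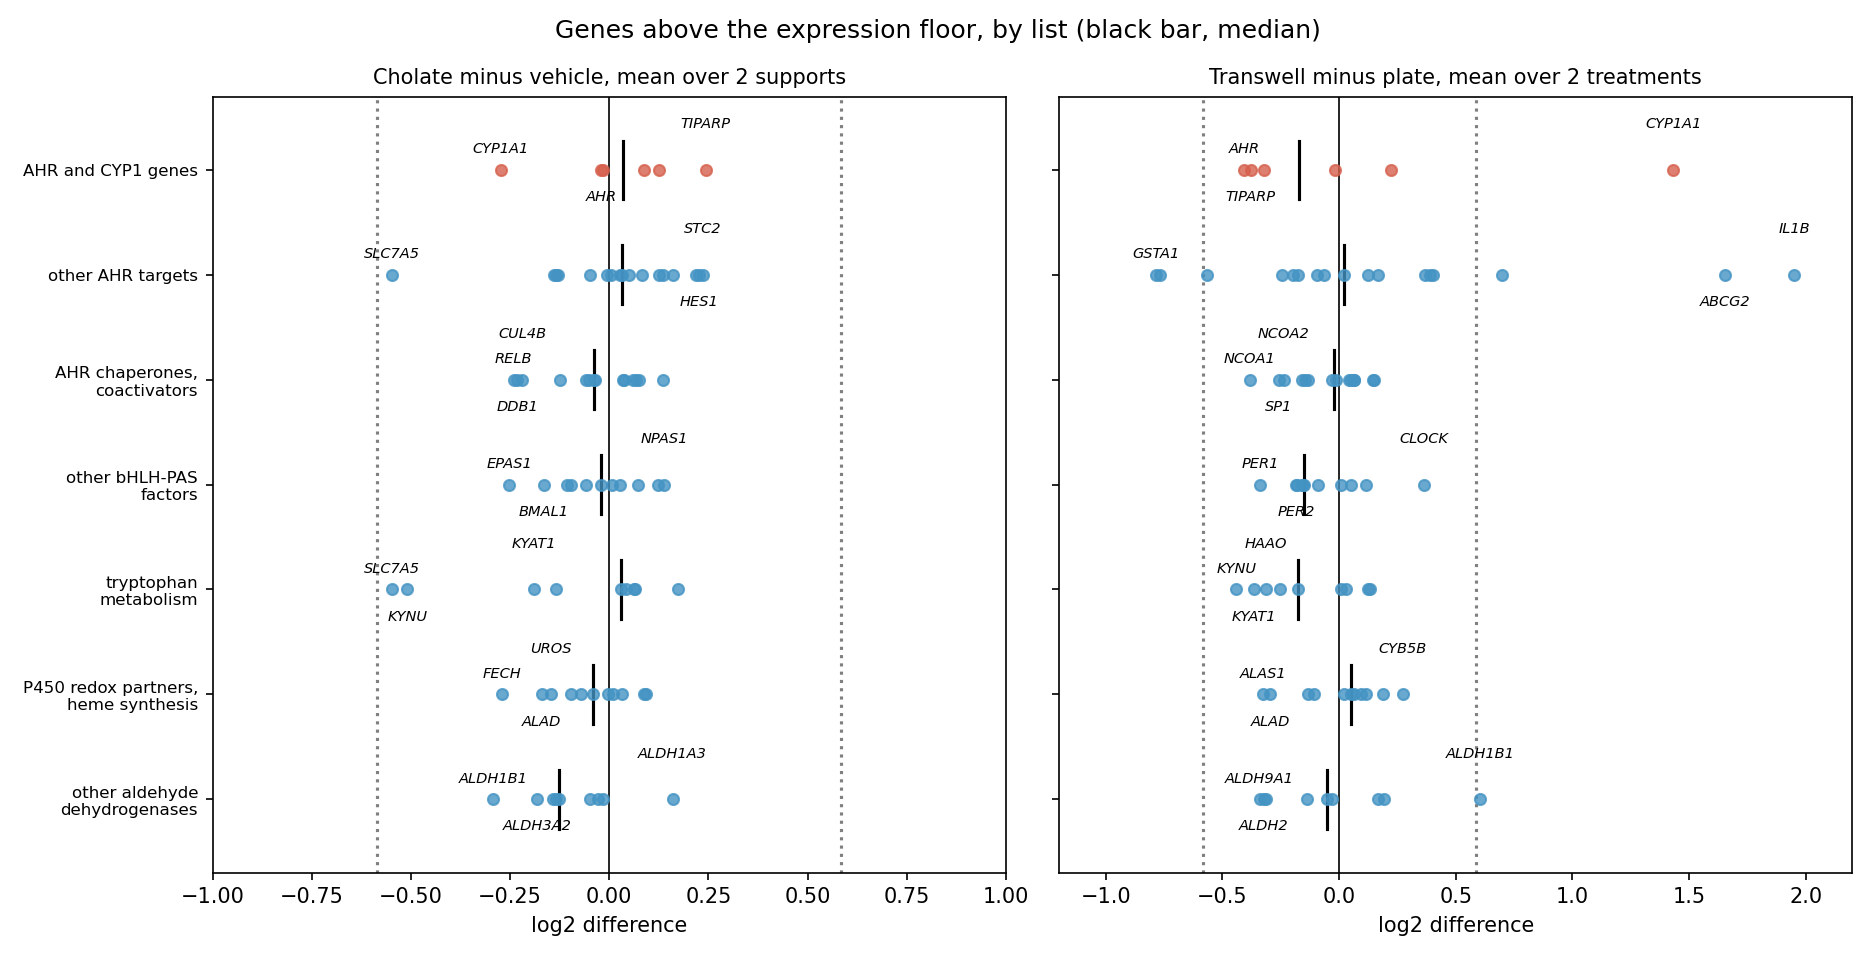
Mean log2 differences of genes above the floor in 7 lists, for cholate minus vehicle (left) and Transwell minus plate (right), with 1 point per gene, list medians as black bars and 1.5-fold as dotted lines. CYP1A1, IL1B and ABCG2 lie far to the right between supports, and in cholate no point passes 1.5-fold.

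CYP1A1 was the member whose values spanned at least 1 log2 unit over the arrays, so the genes with the most similar profile were sought for it alone. Likeness was the Euclidean distance, in log2 units over 4 arrays, after each gene's own mean was subtracted, among 12899 other genes above the floor. The nearest were UBD, a ubiquitin-like protein (0.17), MARS2, the mitochondrial methionyl-tRNA synthetase (0.22), ABCG2 (0.26) and CLRN3, a clarin-family membrane protein (0.27). UBD read 7.53 in cholate and 7.63 in vehicle on Transwell, against 5.81 in cholate and 6.33 in vehicle on the plate. In these 4 genes, as in CYP1A1, Transwell lay above the plate in both treatments. Cholate lay below vehicle on each support, on Transwell by -0.09 in UBD, -0.002 in MARS2, -0.05 in ABCG2 and -0.03 in CLRN3. Their distance to CYP1A1 was the criterion that chose them, so neither it nor the shared order is a test.

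**Figure D4:**
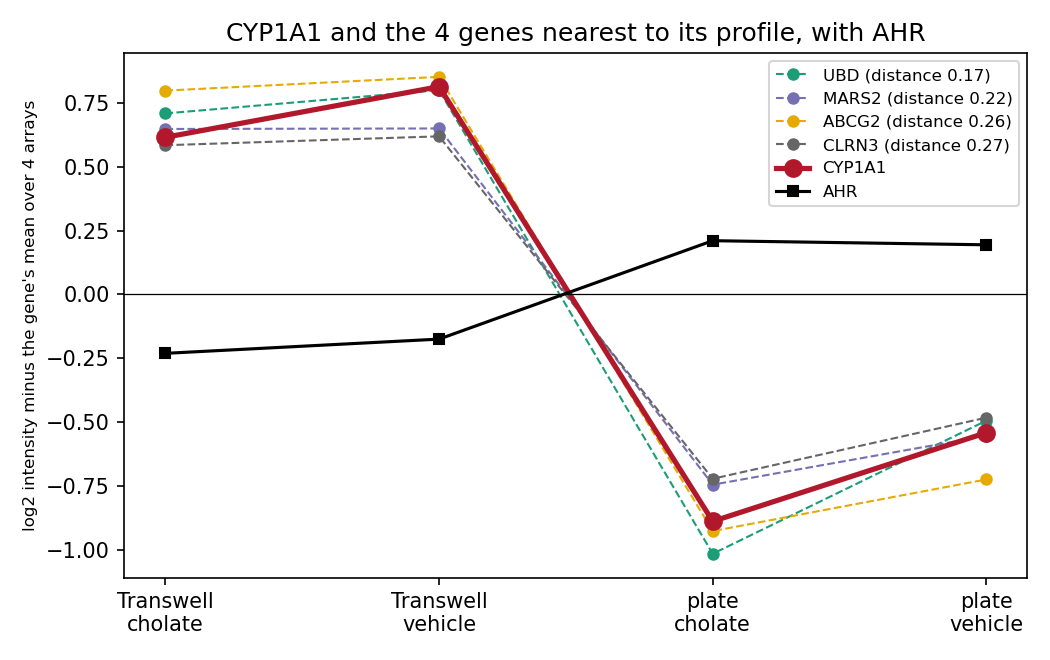
Log2 intensity minus the gene's own mean over 4 arrays for CYP1A1, the 4 genes nearest to its profile and AHR, on the Transwell cholate, Transwell vehicle, plate cholate and plate vehicle arrays. The 5 profiles lie above 0 on Transwell and below 0 on the plate, and AHR lies below 0 on Transwell and above 0 on the plate.

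Enterocyte markers went both ways between supports, and those named here were picked after their values were seen. LGALS4, a galectin of enterocytes, differed by 1.18 in cholate and 1.14 in vehicle, and KRT20, a keratin of differentiated cells, by 0.83 and 0.39. CDX2, an intestinal transcription factor, read 9.48 in cholate and 9.68 in vehicle on Transwell, against 8.92 in cholate and 8.68 in vehicle on the plate. On the other side were KRT18 (-0.17 in cholate and -0.28 in vehicle), KRT8 (-0.11 and -0.23), ALPI (-0.32 and -0.04) and CDX1 (-0.08 and -0.02). Of the 11 markers 4 were higher on Transwell in both treatments, 4 lower and 3 mixed. Their summed log2 intensity was 108.37 to 108.42 on Transwell and 106.35 to 106.58 on the plate, while the median of the mean support differences over the 11 was -0.03. The sums of the 7 fibroblast markers were 34.99 to 35.11 on Transwell and 35.89 to 36.22 on the plate. The 5 leukocyte markers summed to 28.29 to 28.78 on Transwell and 28.33 to 29.02 on the plate, and the 5 endothelial markers to 21.55 to 21.80 and 20.99 to 21.67. PECAM1, the endothelial marker above the floor, differed by 0.70 in cholate and 0.30 in vehicle. Of the leukocyte markers above it, CD14 differed by 0.40 and 0.12 and CD68 by -0.64 and -0.33. The part of these markers in the CYP1A1 result was not tested.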

How the data were processed

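Per the labels, labelled cDNA from pooled total RNA of 4 conditions was hybridised to 1 array each. The deposited log2 intensities, 1 per probe set and array, were made by the authors with RMA, per the submitters' processing notes; the sources used here name neither its software nor a version. RMA equalises the arrays' distributions, which hides any shift common to most genes, and it compresses differences near background. Array medians lay between 5.64 and 5.73. The number of arrays limits the precision.

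Of 33297 probe sets, 19460 had 1 gene symbol in the platform annotation, 1754 several and 12083 none listed. The probe set with the highest mean stood for a gene; each measured member had 1. Probe sets at or above the 40th percentile of the mean (19978, with 12900 genes) entered limma 3.58.1 in R 4.3.3 (additive model of support and treatment, eBayes, 2-sided, Benjamini-Hochberg over all probe sets, call at 0.05). The prior had 2.83 degrees of freedom. Each standard error combines the probe set's own disagreement between the 2 cholate responses, with 1 degree of freedom, and this prior shared over probe sets. The prior has the larger weight, so the intervals are only in part a measure of the single gene. Variation between cultures cannot be told apart in that disagreement from a true difference of responses. The fit was tested on simulated data. Differences of 2 arrays were counted at 1.5-fold (0.58 log2).

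Named genes were all members, the 3 genes of each list with the largest absolute mean in each effect, and the 4 nearest profiles of any member spanning at least 1 log2 unit. The members and lists were chosen with earlier results of these data known. Alternatives were median centring, quantile normalization, cyclic loess, other floors, a mean-variance trend, averaging of probe sets and a 2-fold count. Promoters of 6 of the 8 members were in the RefSeq table. No genomic positions of probe sets are given because no source used here names their build.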

Additional observations from a re-analysis of the deposited data

Results flagged for a closer look

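Some members had opposite signs under one contrast in the 2 settings in which it was measured. With 1 array per condition these differences were not tested. The cholate response of ALDH3A1 was above 0 on Transwell and below 0 on the plate, a difference of 0.44 log2. The same number is the difference between its Transwell minus plate contrasts in cholate and in vehicle, where the vehicle contrast stood at -0.001 and just above 0 under median centring and quantile normalization. AHR and ARNT had small responses of opposite sign on the 2 supports in the deposited scaling. The Transwell response minus the plate response was -0.072 for AHR and -0.037 for ARNT, and under median centring both responses of both genes were below 0. CYP1A2 had a Transwell minus plate contrast below 0 in cholate and above 0 in vehicle, a difference of -0.10. CYP1B1 also had opposite signs, with 0.50 for the difference in either contrast, but no difference is read from it because all its values lay under the floor.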

How the results depend on the processing

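The number of members called by limma for support was 0 as reported and 1 under 2 alternatives, and the gene was CYP1A1 in both. With the floor at the 60th percentile, which left 13319 probe sets and 4 members to test, its adjusted p was 0.0135 and 807 probe sets were called in all. CYP1A1 passed that floor only through its Transwell values, so this p is no added support. With a mean-variance trend its adjusted p was 0.0308 and 293 were called, against 0 of 19978 as reported; the cause was not tested. Under median centring, quantile normalization, cyclic loess and no floor the count of members was 0. For cholate it was 0 under all 6 refits, as was the number of probe sets called. Between supports 3 members were lower in both treatments as deposited and under the 3 scalings, and 1 or 2 were higher. The counts of members at 1.5-fold, 1 (CYP1A1) in each support contrast and 0 in each cholate response, were the same under the 3 scalings and at 2-fold, and averaging probe sets changed nothing because each member has 1. CYP1A1 for support ran between 1.42 and 1.46 log2 over the refits and its cholate effect between -0.33 and -0.27. Signs changed in 13 of 152 alternative values of members, all of AHR, ARNT, CYP1A2 or ALDH3A1 and all within 0.07 of 0. No paired analysis was possible because each condition has 1 array and the labels give no replicate numbers. Values near or under the floor, as for CYP1A2, ALDH3A1 and CYP1B1, are limited by background. Plate values of CYP1A1 (5.75 in cholate and 6.10 in vehicle) and IL1B (5.57 and 5.16) were also low, beside array medians of 5.64 to 5.73. Background can limit the differences of these genes too.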
